A study of Mus musculus with 6 samples.

Results

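The 9 genes of the retinal dopamine system described here cover synthesis (Th, Ddc), storage and reuptake (Slc18a2, Slc6a3), receptors (Drd1, Drd2, Drd5) and breakdown (Maoa, Maob) of dopamine. They were taken by gene symbol from a table of 55450 genes of mouse retina, and all 9 were found. Total RNA was sequenced from 6 retina samples of the strain C57BL/6 at 8 weeks. Of these, 3 carry the name Myrf-kd, which the series describes as Myrf +/−, and 3 are wild type (WT), with no treatment or further allele stated. Myrf codes for a transcription factor that starts out bound to a membrane. The labels name neither the altered part of the gene nor separate animals within a group. By the sex genes given below, each group held male and female libraries, so its samples were not all from the same animal. Every p-value reflects the spread between samples, which may be technical in part. Myrf was listed at 0.279, 0.382 and 0.351 FPKM (fragments scaled to transcript length and library depth) in Myrf-kd 1, 2 and 3 and at 0.359, 0.397 and 0.463 FPKM in WT 1, 2 and 3, so the groups overlapped and the labels were not checked by it.

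In the retina, dopamine is made by a sparse class of amacrine cells that release it in light. Th (tyrosine hydroxylase) makes L-DOPA from tyrosine with the cofactor tetrahydrobiopterin, Ddc (aromatic L-amino acid decarboxylase) turns L-DOPA into dopamine, Slc18a2 (the vesicular monoamine transporter VMAT2) loads it into vesicles and Slc6a3 (the dopamine transporter) takes it back up. Receptors of the D1 class (Drd1, Drd5) raise cyclic AMP and those of the D2 class (Drd2, Drd4) lower it, on other retinal neurons and, for Drd2, on the dopamine cells themselves. The monoamine oxidases Maoa and Maob break dopamine down. Dopamine sets the retina for daylight vision and is known in animal models for restraining growth of the eye.

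Reads of whole retina sum over all cells, so fewer cells of a type and less RNA per cell cannot be told apart. Judged by their values, the estimated counts hold about 4 units per fragment, a factor that no source states. All fragment numbers given here rest on it. By this factor between 12673773 fragments (WT 2) and 17574628 fragments (WT 3) lay behind each library. Xist and 4 Y-linked genes marked 1 female library per group, Myrf-kd 3 and WT 3, and 4 male ones. The markers of the labelled tissue were present, with 11 of 12 retina genes at a mean of 1 FPKM or more and Onecut1 at 0.937 FPKM.

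Upstream sequences were read for the genes whose RNA marks the dopamine cell, because they show which control elements lie at the starts of the genes measured below. RefSeq (GRCm38.p6) gave 10 windows for 8 of the 9 genes, each from 250 bases before the annotated start to 30 bases from it, and none for Maob. In the sequences shown, 5′ to 3′ on the gene's strand, capitals mark a cAMP response element in Th and Slc18a2 and an element bound by NR4A nuclear receptors (the family of Nr4a2, a regulator of dopamine neurons) in the upstream of the 2 Ddc windows.
Th, chr7:142899966-142900245, minus strand: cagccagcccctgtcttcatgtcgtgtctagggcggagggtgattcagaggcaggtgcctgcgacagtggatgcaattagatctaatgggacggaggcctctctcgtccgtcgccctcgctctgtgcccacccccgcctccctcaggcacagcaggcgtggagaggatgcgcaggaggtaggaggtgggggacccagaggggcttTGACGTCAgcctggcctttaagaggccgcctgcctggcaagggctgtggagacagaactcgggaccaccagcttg
Slc18a2, chr19:59260628-59260907, plus strand: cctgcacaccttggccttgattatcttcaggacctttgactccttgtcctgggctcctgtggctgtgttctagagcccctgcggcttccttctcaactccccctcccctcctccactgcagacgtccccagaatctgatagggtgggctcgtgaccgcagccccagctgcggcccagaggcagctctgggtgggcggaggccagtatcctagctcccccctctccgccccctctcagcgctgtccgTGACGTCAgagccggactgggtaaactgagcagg
Ddc, chr11:11898115-11898394, minus strand: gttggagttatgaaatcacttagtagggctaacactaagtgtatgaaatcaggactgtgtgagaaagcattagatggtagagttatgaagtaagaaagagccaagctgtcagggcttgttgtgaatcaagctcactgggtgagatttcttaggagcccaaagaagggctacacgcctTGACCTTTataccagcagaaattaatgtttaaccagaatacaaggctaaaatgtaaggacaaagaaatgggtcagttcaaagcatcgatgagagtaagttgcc
Motifs were searched on both strands as exact letters. The cAMP response element TGACGTCA was in 1.74% of 32851 windows of the same length, and among the dopamine genes it was in the windows of Th, where its first base lies 45 bases before the start, and Slc18a2, where its first base lies 4 bases before the start and the element runs across it. The NR4A element AAAGGTCA was in 1.45% of windows and, of the members, in Ddc alone, on the opposite strand (TGACCTTT) with its first base 73 bases before the start. A TATA box (TATAAA, 13.1% of windows) matched that Ddc window on the opposite strand, overlapping the NR4A element by 3 bases. The downstream Ddc window (chr11:11890379-11890658) held no match to either element, and which start is used in retina was not tested. The GC box GGGCGG was in 34.7% of windows and in 8 of the 10 member windows, those of every matched gene but Ddc. The core motif of MYRF itself was searched in 2 forms. CTGGCAC was in 4.72% of windows and in 1 window each of Drd1 and Slc6a3, and CTGGTAC in 2.06% and in no member window. A match is a stretch of letters and was not tested as a binding site.

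The levels of the 9 genes spanned a wide range. Compared per length over all 6 libraries (mean ± SD, FPKM), the receptors Drd2 (11.32 ± 1.54) and Drd1 (11.20 ± 0.543) were highest, and their ranges overlapped, with Drd2 above Drd1 in 3 of 6 libraries. Maoa followed at 4.04 ± 0.408 FPKM, below Drd1 in 6 of 6 libraries. Th (1.29 ± 0.209), Drd5 (1.19 ± 0.192), Maob (1.18 ± 0.303) and Slc18a2 (1.17 ± 0.171) had overlapping ranges and no order among them. Ddc, at 0.205 ± 0.0818 FPKM, was below each of those 4 genes in 6 of 6 libraries, and Slc6a3 was last. The plot of FPKM by library shows these levels.

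**Figure D1:**
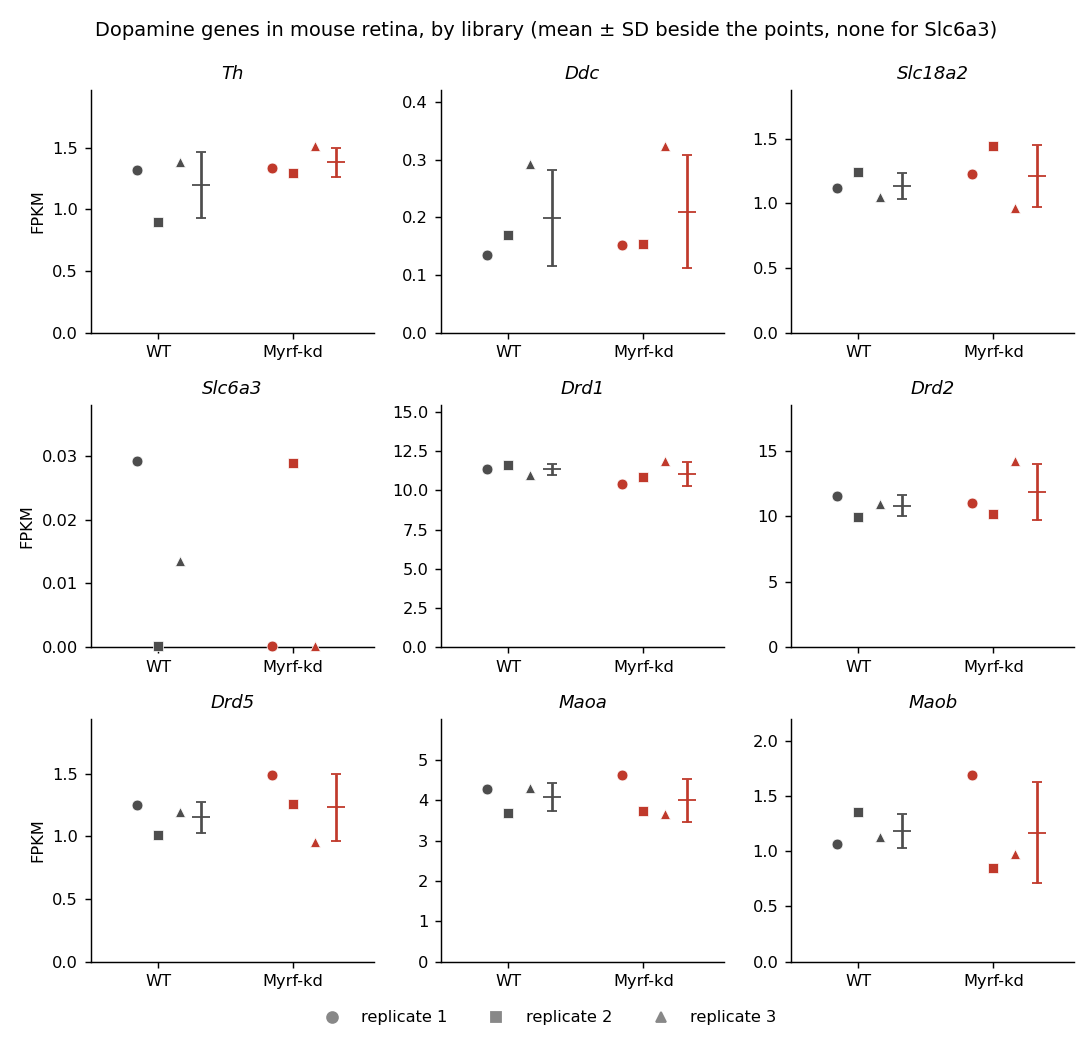
FPKM of the 9 dopamine genes in each library (vertical axis from 0, a scale of its own for each gene), WT in grey and Myrf-kd in red, with replicates 1, 2 and 3 as circle, square and triangle and the mean ± SD (n = 3) beside the points, except for Slc6a3. The points of WT and Myrf-kd overlap for each of the 9 genes, and Drd1 and Drd2 lie near 11 FPKM in both groups.

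None of the 9 dopamine genes differed between Myrf-kd and WT past the threshold (adjusted p under 0.05 by the quasi-likelihood test of edgeR, Benjamini-Hochberg over 13675 genes), where 6 genes (0.0439%) passed in all. At an unadjusted p under 0.05 the count was 0 members, against 7.46% of all genes tested, and by DESeq2 and by limma 0 members passed as well. The groups did not separate for any member, while they did for 14.6% of all genes tested. These 9 genes include Ddc and Slc6a3, which lay under a mean of 1 FPKM and were kept in the fit. Of the 8 genes with a fold change, 5 had a higher and 3 a lower estimate in Myrf-kd, with a median log2 fold change of 0.06 beside 0.0041 over all genes tested. A level of 50% of WT lay outside the 95% interval for 8 of the 8 genes and a level of 200% for 7, Ddc being the exception. The intervals cover the spread between libraries, and the smallest adjusted p was 0.816 (Th).

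Synthesis was read first. Th (ENSMUSG00000000214, chr7:142892752-142931128, minus strand, GRCm38), which defines the dopaminergic amacrine cell and whose upstream window holds the cAMP response element shown above, was at 1.34, 1.29 and 1.51 FPKM in Myrf-kd 1, 2 and 3 and at 1.32, 0.894 and 1.38 FPKM in WT 1, 2 and 3. The lowest value was that of WT 2, the shallowest library, with 31.25 fragments against 55.25 to 70.5 in the other 5. Apart from it, the groups lay within the same range. Th was fitted at 114% of WT in Myrf-kd (95% interval 81.0% to 161%), a log2 fold change of 0.19 ± 0.21 SE, which was 0.03 without WT 2 and 0.31 without WT 3. It did not pass the test (edgeR, adjusted p = 0.816). Permuting the libraries gave an exact two-sided p of 0.5, and the smallest p that 3 against 3 allow is 0.1.

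Ddc (ENSMUSG00000020182, chr11:11814101-11898144, minus strand), which also acts in serotonin synthesis, was at 0.152, 0.154 and 0.324 FPKM in Myrf-kd 1, 2 and 3 and at 0.135, 0.170 and 0.293 FPKM in WT 1, 2 and 3. Both groups had 1 high library, the female one. Counts were low, from 11.5 to 29 fragments per library, and this gene had the widest interval of the 8, with a level in Myrf-kd of 104% of WT (51.04% to 211%, edgeR, adjusted p = 0.980). Its log2 fold change of 0.05 ± 0.43 SE turned to −0.41 without Myrf-kd 3, to −0.17 without WT 1 and to −0.03 without WT 2. With sex as a covariate it was 0.03 ± 0.23 SE (edgeR, adjusted p = 0.972). A further gene, 1700042O10Rik, overlaps Ddc but shares 0 exonic bases with it. Per length, Th stood 4.67 to 9.76 times above Ddc in the 6 libraries.

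Storage and reuptake gave the same picture for Slc18a2 (ENSMUSG00000025094, chr19:59260896-59296012, plus strand). Its FPKM was 1.23, 1.44 and 0.962 in Myrf-kd 1, 2 and 3 and 1.12, 1.24 and 1.05 in WT 1, 2 and 3. Both the highest and the lowest library were Myrf-kd. The level in Myrf-kd was 105% of WT (78.1% to 142%), a log2 fold change of 0.07 ± 0.18 SE (edgeR, adjusted p = 0.927). It was covered by 95.75 to 136 fragments in a library. Without Myrf-kd 2 the log2 fold change was −0.06. The ratio of Th to Slc18a2, which share the cAMP response element shown above, ran per length from 0.719 to 1.57 over the libraries. The antisense gene Gm29261 overlaps 111 of the 5225 exonic bases of Slc18a2 and was listed at 0 in all 6 libraries.

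Slc6a3 (ENSMUSG00000021609, chr13:73536747-73578672, plus strand), the transporter that ends the dopamine signal by reuptake, was at the limit of detection in whole retina. It had 0, 2 and 0 fragments in Myrf-kd 1, 2 and 3 and 2, 0 and 1 fragments in WT 1, 2 and 3. The sums were 2 fragments in Myrf-kd (95% exact Poisson interval 0.242 to 7.22) and 3 in WT (0.619 to 8.77), intervals that cover counting error only. No difference was detectable at this depth, and no fold change is given.

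Drd1 and Drd2, but not Drd5, were the most abundant members. Drd1 (ENSMUSG00000021478, chr13:54051183-54055705, minus strand), the D1 receptor, was at 10.4, 10.9 and 11.9 FPKM in Myrf-kd 1, 2 and 3 and at 11.4, 11.6 and 11.0 FPKM in WT 1, 2 and 3. The Myrf-kd libraries lay on both sides of WT. With 621.25 to 849 fragments per library this gene had the narrowest interval of the 8, and its level in Myrf-kd was 96.4% of WT (84.6% to 109.7%, log2 fold change −0.05 ± 0.08 SE, edgeR, adjusted p = 0.866).

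Drd2 (ENSMUSG00000032259, chr9:49340627-49408177, plus strand), the D2 receptor, was at 11.0, 10.2 and 14.3 FPKM in Myrf-kd 1, 2 and 3 and at 11.6, 9.98 and 10.9 FPKM in WT 1, 2 and 3. Myrf-kd 3 stood above the other 5 libraries, which overlapped. The level in Myrf-kd was 108% of WT (85.6% to 136%, log2 fold change 0.11 ± 0.14 SE, edgeR, adjusted p = 0.845), and without Myrf-kd 3 the log2 fold change was −0.05. The ratio of Drd2 to Drd1 per length was 1.06 ± 0.129 in Myrf-kd and 0.956 ± 0.0860 in WT (SD, n = 3 each, exact two-sided permutation p = 0.4).

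Drd5 (ENSMUSG00000039358, chr5:38319367-38322518, plus strand), the other receptor of the D1 class, was at 1.49, 1.26 and 0.953 FPKM in Myrf-kd 1, 2 and 3 and at 1.25, 1.01 and 1.197 FPKM in WT 1, 2 and 3. Myrf-kd held both the highest and the lowest library, as for Slc18a2. The level in Myrf-kd was 106% of WT (75.4% to 148.5%, log2 fold change 0.08 ± 0.21 SE, edgeR, adjusted p = 0.929). Drd1 exceeded Drd5 per length 7.01 to 12.5 times. An antisense gene, Gm26560, overlaps 1531 of the 3152 exonic bases of Drd5 and was listed at up to 0.0937 FPKM, and without a stated strand the reads of this pair cannot be told apart. Without Myrf-kd 1 the log2 fold change of Drd5 was −0.08.

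Breakdown was represented by neighbouring genes on the X chromosome. Maoa (ENSMUSG00000025037, chrX:16619698-16687818, plus strand) was at 4.62, 3.72 and 3.66 FPKM in Myrf-kd 1, 2 and 3 and at 4.27, 3.68 and 4.30 FPKM in WT 1, 2 and 3. The values of the groups interleaved, with both the highest and the lowest library in Myrf-kd. Its level in Myrf-kd was 96.8% of WT (78.4% to 119.5%, log2 fold change −0.05 ± 0.13 SE, edgeR, adjusted p = 0.936), and it was 0.01 without Myrf-kd 2 and also without Myrf-kd 3.

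Maob (ENSMUSG00000040147, chrX:16709282-16817366, minus strand) was at 1.69, 0.846 and 0.975 FPKM in Myrf-kd 1, 2 and 3 and at 1.06, 1.35 and 1.13 FPKM in WT 1, 2 and 3. Myrf-kd 1 was the highest library and the other Myrf-kd libraries the lowest. The level in Myrf-kd was 97.8% of WT (60.2% to 159%, log2 fold change −0.03 ± 0.30 SE, edgeR, adjusted p = 0.982). The log2 fold change was −0.40 without Myrf-kd 1 and 0.16 without Myrf-kd 2. Per length Maoa exceeded Maob 2.71 to 4.40 times, 3.63 ± 0.840 in Myrf-kd and 3.52 ± 0.702 in WT (SD, n = 3 each, exact two-sided permutation p = 0.9). The female libraries lay within the male range for Maob. For Maoa the female WT 3 lay within it and the female Myrf-kd 3 was the lowest of the 6.

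**Figure D2:**
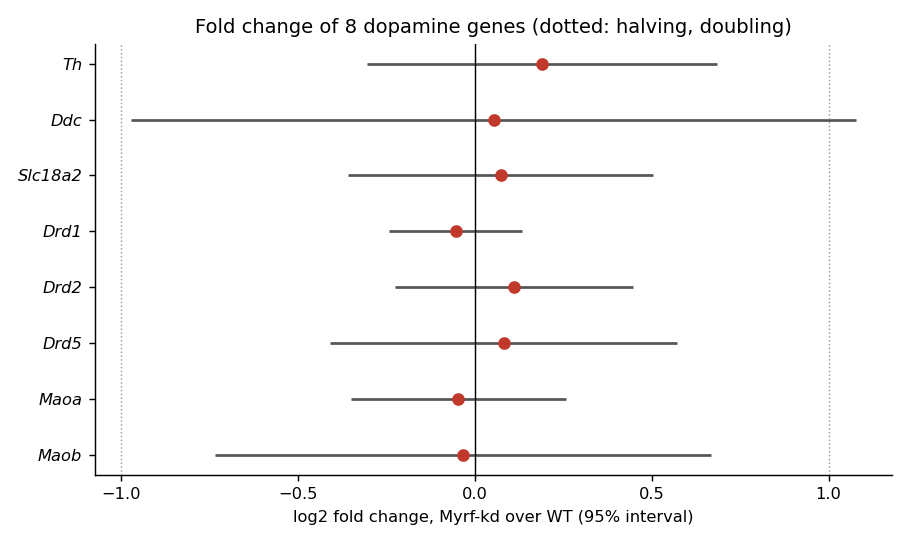
Fitted level of the 8 dopamine genes with a fold change in Myrf-kd relative to WT, as a log2 fold change from edgeR (points) with 95% intervals (bars). All 8 intervals include 0, and the widest is that of Ddc, from 51.04% to 211% of WT.

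Other genes of the pathway were read from 7 lists with 102 genes, of which 70 passed the filter on low values. By edgeR 0 of the 70 were called, 4 had an unadjusted p under 0.05 (5.71%, against 7.46% of all genes tested), and 8 had groups that did not overlap (11.4%, against 14.6%). Estimates were higher in Myrf-kd for 35 genes and lower for 35, and the median was 0.0047 on the log2 scale.

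The tetrahydrobiopterin genes, which make and recycle the cofactor of Th, had 7 of 8 genes tested, 4 higher and 3 lower in estimate (median log2 fold change 0.07). Spr (sepiapterin reductase, the last step of cofactor synthesis) was at 2.91, 2.34 and 3.35 FPKM in Myrf-kd 1, 2 and 3 and at 1.96, 1.63 and 1.53 FPKM in WT 1, 2 and 3. All Myrf-kd libraries lay above all WT libraries. Its fitted level in Myrf-kd was 166% of WT (124.7% to 221.6%, log2 fold change 0.73 ± 0.18 SE), with an unadjusted p of 0.00426, and it did not pass after adjustment over all genes (edgeR, adjusted p = 0.665, and by DESeq2 0.0563). Gchfr, the feedback regulator of cofactor synthesis, had a log2 fold change of 0.40 (adjusted p = 0.792 by edgeR), which was 0.08 without WT 3 and 0.75 without WT 2. Gch1, the first and limiting enzyme of cofactor synthesis, lay under the filter at 0.0899 to 0.189 FPKM.

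Of 10 other genes of dopamine handling 6 were tested, with 4 estimates higher and 2 lower. Drd4, the D2-class receptor of photoreceptors, was above each of the 9 members per length, at 30.2, 30.3 and 51.1 FPKM in Myrf-kd 1, 2 and 3 and 28.2, 25.5 and 27.2 FPKM in WT 1, 2 and 3. Its groups did not overlap, and Myrf-kd 3 stood far above the rest. The log2 fold change was 0.45 ± 0.21 SE (edgeR, adjusted p = 0.686) and 0.15 without Myrf-kd 3. The aldehyde dehydrogenases Aldh1a1 and Aldh2 had log2 fold changes of −0.20 and 0.09. Drd3, a further D2-class receptor, had 0 units in all 6 libraries. Dbh, which turns dopamine into noradrenaline and marks adrenergic cells, reached at most 5.25 fragments in a library.

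The 25 genes of dopamine receptor signalling had 24 tested, 10 higher and 14 lower in estimate (median log2 fold change −0.02). Gnao1, the G protein alpha subunit of ON bipolar cells, through which D2-class receptors also act, was at 22.6, 20.9 and 30.02 FPKM in Myrf-kd 1, 2 and 3 and at 33.5, 30.9 and 29.7 FPKM in WT 1, 2 and 3. The groups overlapped through Myrf-kd 3. Its log2 fold change was −0.37 ± 0.14 SE (edgeR, adjusted p = 0.665). Caly and the adenylyl cyclase Adcy6 each had a log2 fold change of −0.12.

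Of 16 regulators of dopaminergic neurons 8 were tested, 4 higher and 4 lower in estimate. Neurod1, a basic helix-loop-helix factor, had 103, 112 and 124 FPKM in Myrf-kd 1, 2 and 3 and 97.2, 89.1 and 94.3 FPKM in WT 1, 2 and 3, without overlap (log2 fold change 0.25 ± 0.08 SE, edgeR, adjusted p = 0.665). In whole retina Neurod1 lay far above Th (mean 1.29 FPKM over all libraries), and its values were not assigned to dopamine cells. Nr4a1, a nuclear receptor of immediate early type, had a log2 fold change of 0.46 (adjusted p = 0.703 by edgeR). Nr4a2, of the family whose element lies in the upstream Ddc window, was at 1.19 to 2.23 FPKM, with a log2 fold change of 0.03.

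In the list of retinal circuits of dopamine cells 13 of 20 genes were tested, 7 higher and 6 lower in estimate. Penk, the enkephalin precursor of amacrine cells, had 42.3 FPKM in Myrf-kd 1 against 4.49 to 5.89 FPKM in the other 5 libraries, so its log2 fold change of 1.64 ± 0.87 SE came from 1 library and was −0.28 without it (adjusted p = 0.698 by edgeR with all libraries). Trpm1, the ON bipolar cation channel, and Sst (somatostatin) had log2 fold changes of −0.24 and 0.40. Other monoamine systems had 7 of 14 genes tested, 4 higher and 3 lower. Hdc, which makes histamine, was at 5.46, 5.06 and 4.94 FPKM in Myrf-kd 1, 2 and 3 and at 5.64, 5.86 and 6.25 FPKM in WT 1, 2 and 3, without overlap (log2 fold change −0.22 ± 0.09 SE, edgeR, adjusted p = 0.665). Tph2, the enzyme of neuronal serotonin synthesis, was at 0.916, 0.998 and 1.24 FPKM and at 1.27, 1.42 and 1.44 FPKM, also without overlap (log2 fold change −0.41 ± 0.18 SE, edgeR, adjusted p = 0.677), and the histamine receptor Hrh3 had a log2 fold change of −0.25. Tyrosine and catechol metabolism had 5 of 9 genes tested, with 2 higher and 3 lower in estimate, among them Gstz1 (log2 fold change −0.10), Sult1a1 (0.16) and the melanin gene Dct (−0.24, and 0.05 without Myrf-kd 3).

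**Figure D3:**
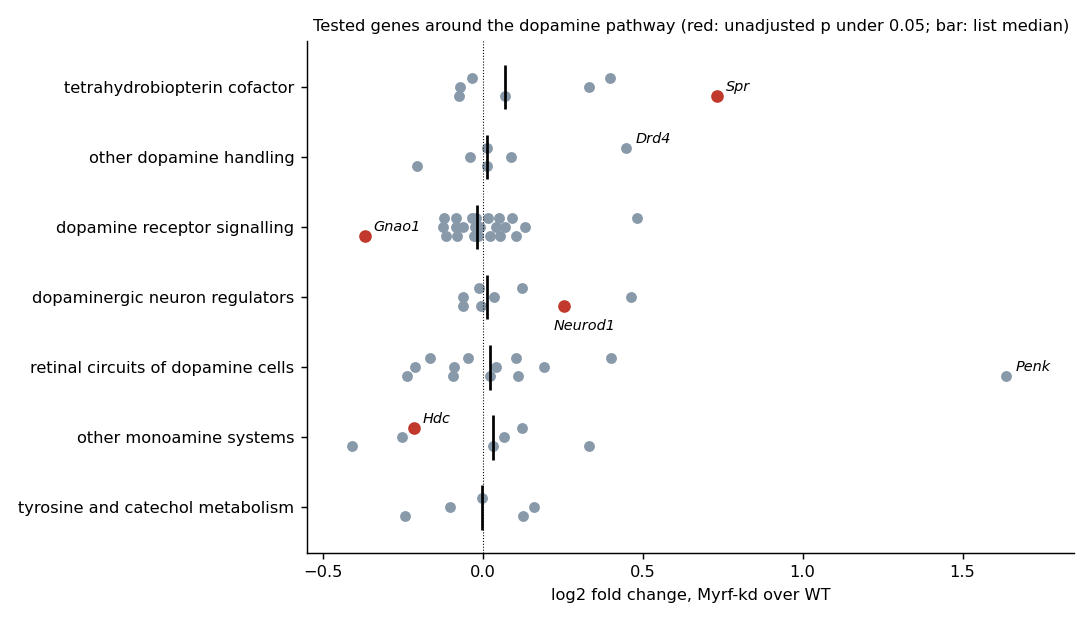
Log2 fold change (horizontal axis, Myrf-kd against WT, edgeR) of the 70 tested genes of the 7 pathway lists, 1 point per gene, with the 4 genes at an unadjusted p under 0.05 in red and a vertical bar at each list's median. The points lie on both sides of 0 in each list, with Spr (0.73) and Penk (1.64) farthest to the right in theirs.

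**Figure D4:**
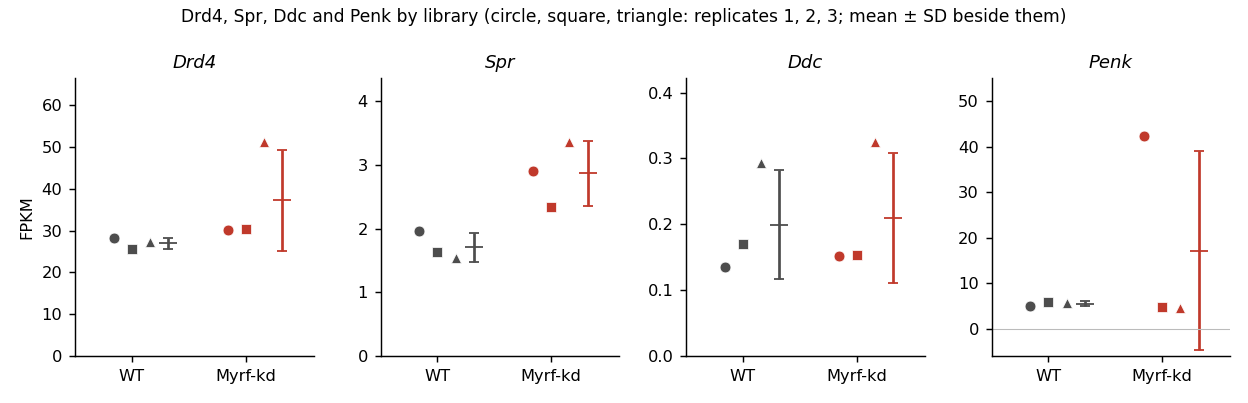
FPKM of Drd4, Spr, Ddc and Penk in each library, with mean ± SD (n = 3) per group, WT in grey and Myrf-kd in red. Myrf-kd 3 is high for Drd4 and Ddc and Myrf-kd 1 for Penk, while the 3 Myrf-kd points of Spr all lie above the 3 WT points.

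Genes of the whole amacrine class and of other tissues were summed in CPM (units scaled to the TMM-normalized library total), given for Myrf-kd 1, 2 and 3 and then for WT 1, 2 and 3. The 17 general amacrine genes summed to 1700, 1800 and 1820 and to 1760, 1840 and 1770 CPM, and the 9 dopamine genes to 122, 113 and 128 and to 121, 118 and 120 CPM. The groups overlapped in both sums. Of the 16 amacrine genes tested 0 were called by edgeR and 2 (12.5%, against 7.46% of all genes tested) had an unadjusted p under 0.05, Pax6 (log2 fold change 0.22 ± 0.09 SE) and Slc17a8 (−0.28 ± 0.12 SE). The groups did not overlap for 4 of the 16 (25%, against 14.6%).

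Of the 12 retina genes 11 were tested, 2 higher and 9 lower in estimate. The sums of the 8 genes of the pigment epithelium ran from 417 to 464 CPM in Myrf-kd and from 469 to 562 CPM in WT, and those of the 5 genes of cornea and surface epithelium from 1.40 to 6.28 and from 14.0 to 18.9 CPM. In these lists, as in the retina list, all WT libraries lay above all Myrf-kd libraries. Most of the pigment epithelium sum was Rlbp1, which is also on the retina list. It stood at 291 to 309 CPM in Myrf-kd and at 315 to 359 CPM in WT. The sum without this gene was not compared. The sums overlapped between groups for 7 lens genes (0.558 to 62.1 and 14.3 to 24.2 CPM), 9 genes of ciliary body, iris and adrenergic nerve (18.7 to 31.1 and 21.6 to 24.9 CPM) and 6 genes of endothelium and blood (174 to 207 and 165 to 222 CPM). By edgeR 0 genes of these lists were called. The part of these tissues in the values of the dopamine genes was not tested.

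The genes whose pattern over the 6 libraries was most like that of a dopamine cell marker were named by Pearson's r of log2 CPM over 13674 genes, as a description without a test. For Th these were Zmym6 (r = 0.990), Skiv2l (0.984) and Gm10093 (0.983), and for Slc18a2 Rnf157 (0.989), Epb41l1 (0.984) and Gm44033 (0.981). The 6 points share library and depth, and these are the highest of 13674 values. Slc6a3 had too few fragments for a pattern.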

How the data were processed

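Libraries were made from Trizol-extracted total RNA, per the labels' protocols. The submitters' processing notes list the build GRCm38 and the tools HISAT2 2.0, StringTie 1.3.0 and Bowtie 0.12.2 without their roles. Strandedness was not given in the sources used here. The authors deposited FPKM values and counts per gene, per the file headers. The counts deposited by the authors were treated as estimated counts: in single-transcript genes above 200 units (1534 to 1788 per library) they follow FPKM times length within 1% for 100% of these genes. The factor of about 4 units per fragment was read from the values, and no source states it. The counts were whole, so rounding changed none.

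The fit took genes averaging 1 FPKM or more over the 6 libraries, plus Ddc and Slc6a3. It used edgeR 4.0.16 in R 4.3.3, with TMM factors, genotype alone in the model, the quasi-likelihood test and Benjamini-Hochberg adjustment at a threshold of 0.05. The fits were tested on simulated data. Single values were compared by an exact permutation test on log2(CPM + 0.5), and ratios by the same test on the log2 of the FPKM ratio. Groups and numbers came from the sample titles. Promoters are RefSeq's for GRCm38.p6, and table coordinates matched GENCODE for 52543 of 55450 genes.

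Named genes are the 9 members, up to 3 tested genes per list with the smallest unadjusted p, and the 3 genes most like a marker. Gch1, Drd3, Dbh, Nr4a2 and Onecut1 were added for their roles after their values were seen, and the results of some genes are not reported here. The members and lists (15 lists, 169 symbols) were chosen with earlier results of these data known. Alternatives were other filters, scalings, tools (DESeq2 1.42.0, limma 3.58.1 on log2(FPKM + 1) and log2(FPKM + 0.1)), counts divided by 4, sex as a covariate, a block for the replicate number and leaving out each library.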

Additional observations from a re-analysis of the deposited data

How the results depend on the processing

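Under 18 alternatives 0 of the 8 dopamine genes with a fold change were called by any, and the smallest adjusted p of a member was 0.61 (edgeR, Maob without Myrf-kd 1). The number of genes called in all, 6, was 2 at a mean FPKM of at least 5, 53 by DESeq2, 0 with a replicate block, and 9 to 16 when 1 library was left out. The count of members with groups that do not overlap, 0, ran from 0 to 2 when 1 library was left out: Maoa and Maob without Myrf-kd 1, Drd1 and Drd5 without Myrf-kd 3. With fewer libraries groups separate more readily. The share over all genes tested was not counted in these fits, so this count is not read as a result about these genes. The count of such members has no value in the block and sex fits. Of 568 values of 32 genes, 555 kept direction and side of the threshold and 13 reversed, each by the omission of 1 library, and the cause was not tested. With 1 library left out, log2 fold changes ran from −0.41 (without Myrf-kd 3) to 0.43 for Ddc, also negative without WT 1 (−0.17) and WT 2 (−0.032). They ran from −0.047 (without Myrf-kd 3) to 0.21 for Drd2, from −0.080 (without Myrf-kd 1) to 0.24 for Drd5, and from −0.064 (without Myrf-kd 2) to 0.215 for Slc18a2. Maoa ran from −0.17 to 0.013 (without Myrf-kd 3, and 0.0088 without Myrf-kd 2). Maob ran from −0.40 to 0.16 (without Myrf-kd 2), also positive without Myrf-kd 3 (0.085) and WT 2 (0.089). Dct ran from −0.96 to 0.053 (without Myrf-kd 3) and Penk from −0.28 (without Myrf-kd 1) to 2.09. Uncalled estimates that kept their sign also moved, from 0.030 (without WT 2) to 0.31 for Th, −0.11 to −0.017 (without Myrf-kd 1) for Drd1, 0.083 (without WT 3) to 0.75 for Gchfr, 0.0063 (without Myrf-kd 1) to 0.17 for Aldh2, −0.36 to −0.089 (without WT 2) for Trpm1 and 0.047 (without Myrf-kd 2) to 0.26 for Sult1a1. The labels do not state whether the replicate numbers pair the libraries. Deviations of same-numbered libraries correlated at −0.0463, 0.0293 and 0.102, and those of differently numbered ones at −0.108 to 0.0854, which does not settle it. The highest value, 0.102, was that of the female libraries. The block changed no call of a dopamine gene. Genes under a mean FPKM of 5, other than members, have no value at that filter. Counts were low for Ddc (11.5 to 29 fragments per library) and Slc6a3 (at most 2). For Ddc the SE was 0.43 in the main fit and 0.23 with sex as a covariate. The parts of depth and sex in its spread were not tested.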

Other observations

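Of the 32 pathway genes not tested because their mean was below 1 FPKM, 3 (9.38%, against 14.6% of all genes tested) had groups that did not overlap. These were Bdnf, Etv1 and Slc18a1, and they were chosen after their values were seen. The share over all genes below the filter was not counted. Bdnf, a neurotrophin, was at 1.10, 1.27 and 1.33 FPKM in Myrf-kd 1, 2 and 3 and at 0.895, 0.771 and 0.590 FPKM in WT 1, 2 and 3, with all Myrf-kd libraries higher. Etv1, a transcription factor of dopaminergic neurons, was at 0.496, 0.603 and 0.679 FPKM and at 0.747, 0.847 and 0.709 FPKM, with all WT libraries higher. Slc18a1, the vesicular monoamine transporter VMAT1, had 8.5, 3 and 5.5 fragments in Myrf-kd 1, 2 and 3 and 0, 0 and 1 fragments in WT 1, 2 and 3. Opn4 (melanopsin), the photopigment of intrinsically photosensitive ganglion cells, was at 0.432 to 0.895 FPKM over the 6 libraries. Lmx1b, a regulator of midbrain dopamine neurons, reached at most 3.5 fragments in a library.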
